A study of Mus musculus with 4 samples.

Results

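Alveolar macrophages that were not in cell cycle were examined in 2 single-cell libraries of dissociated mouse lung tumours. The cells were chosen by their own UMI counts (unique molecular identifiers, each standing for 1 captured transcript). A barcode needed 200 or more genes and no more than 20% of UMIs from mitochondria. It also had at least 3 UMIs of Ear1, Atp6v0d2 and Krt79 together, none of Cd3e (T cells), Cd79a (B cells) or Epcam (epithelium), and at most 2 of the cycle genes Top2a, Mki67 and Birc5 together. The rule gave 1251 cells of the 13531 cells kept, 564 of 7304 in the vehicle library and 687 of 6227 in the library labelled tamoxifen. Since measured counts chose the cells, their difference from other cells in these genes is a description and not a finding.

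All mice carried, per the labels, p53frt, Rosa-FSF-CreERT2 and Hnf4aflox alleles, among others. CreERT2 is switched on, and p53 removed, by Flp recombinase, which an adenovirus delivered as FlpO under the mSPC promoter, the promoter of a surfactant gene of type II alveolar cells. By this design CreERT2 is made in cells that took up the virus and use that promoter. Tamoxifen or its vehicle was injected 10 weeks after infection, and individual macroscopic tumours were taken 2 weeks after that. The vehicle is named ethanol in a label and corn oil in the protocol, and the titles call the vehicle libraries KP and the others KPH although the listed genotype is the same. Part of each suspension was kept before CD45 and CD31 depletion, frozen, thawed and sorted for live cells, and these 2 libraries hold the cells described here. The depleted libraries held 3 such cells each and were not used further. Each group is 1 library, and the age and number of mice behind it are not stated, so no difference could be set against a spread between animals, and no p-values were computed.

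Alveolar macrophages live on the air side of the alveolus, where they take up and break down surfactant, inhaled particles and dying cells. Their identity is maintained by GM-CSF and TGF-β from neighbouring cells, which act through the lipid-sensing nuclear receptor PPARγ, and they renew themselves in place by division. In lung tumours they are found beside macrophages that come from blood monocytes, many of which carry high levels of complement C1q.

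The libraries before depletion held 7658 and 6558 barcodes and 104147479 and 92644997 UMIs (vehicle first, here and below). The alveolar macrophages accounted for 5154245 and 5867200 UMIs, with medians of 7914 and 7492 UMIs and 2754 and 2597 genes per cell. Mitochondrial UMIs had medians of 6.32% and 5.22%. Any pair of the 4 libraries shared from 10 to 18 cell barcodes, and none of these belonged to the cells described. Levels are CPM values (UMIs of a gene per 1e6 UMIs) of UMIs summed over the cells of a library, with exact Poisson 95% intervals. Ratios are log2 of the library labelled tamoxifen over vehicle after adding 1 CPM, with exact binomial 95% intervals of the ratio without that addition. All intervals cover counting error only.

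The treatment label was checked on Hnf4a, the floxed gene. In epithelial cells (at least 10 UMIs of Krt8, Krt18 and Cldn18 together, 774 and 807 cells) Hnf4a stood at 45.3 CPM (42.7 to 48.1) with vehicle and 79.5 CPM (76.1 to 83.0) in the library labelled tamoxifen, against what the label implies. Counts at the 3′ end need not cover the deleted exons, so this does not test recombination. Directions below are those of the libraries as labelled. Among the alveolar macrophages, Hnf4a was counted at 1 and 3 UMIs in all and Cre at 1 and 2 UMIs, while flpO was not detected.

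The genes that name the cells were then compared with those that the rule had not used. The eosinophil-associated ribonucleases Ear1 and Ear2 are neighbours on chromosome 14 (GRCm38, GENCODE M21). Ear1 spans 43818765 to 43875517 on the minus strand, and Ear2 spans 44102654 to 44103534 on the plus strand. The 250 bases before the start that RefSeq gives each gene (GRCm38.p6) are shown because they belong to a gene that chose the cells and to a near copy that did not, and the capitals mark the bases at which they differ. The Ear1 window is chr14:43819640-43819889 on the minus strand and the Ear2 window is chr14:44102404-44102653 on the plus strand, both written 5′ to 3′ along the gene. The Ear1 window lies inside the GENCODE span of Ear1, since that annotation also holds a start further upstream than the one in RefSeq.
Ear1: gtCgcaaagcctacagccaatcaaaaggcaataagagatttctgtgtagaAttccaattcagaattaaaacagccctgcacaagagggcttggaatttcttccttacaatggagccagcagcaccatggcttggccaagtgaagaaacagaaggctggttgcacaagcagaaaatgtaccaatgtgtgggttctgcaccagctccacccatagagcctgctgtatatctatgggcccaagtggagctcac
Ear2: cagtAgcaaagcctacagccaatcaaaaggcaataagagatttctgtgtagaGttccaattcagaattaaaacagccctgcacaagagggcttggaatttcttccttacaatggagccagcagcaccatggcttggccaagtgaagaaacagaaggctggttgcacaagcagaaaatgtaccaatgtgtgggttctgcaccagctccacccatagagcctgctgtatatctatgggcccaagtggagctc
Over the 248 bases that overlap, 246 were identical (99.2%), and the differences were C3A and A51G, with the base of Ear1 given first and positions counted from 1 at the 5′ end of the Ear1 window. The same windows of Ear10 and Ear6, further members of the family, matched that of Ear1 at 85.5% and 72.2% of the aligned bases. The transcripts overlap in sequence too. Of the 60-base windows in annotated Ear1 transcripts, 49.1% occur in another gene of the family, and for Ear2 the share was 32.7%, so the split of UMIs within the family is uncertain. The letters GAGGAA, the core of sites for the myeloid factor PU.1, were searched on both strands of the promoters of 14 marker genes. They occurred in 5 of these (Marco, Mrc1, Fabp1, Siglecf and F7) and in 23.1% of all 27025 promoters of that length, and in neither Ear window. The longer GAGGAAGT, which contains that core, the C/EBP palindrome TTGCGCAA and the CRE letters TGACGTCA were in none of the 14, against 2.44%, 0.17% and 1.62% of all promoters.

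The Ear genes were high in the cells described. Ear1, which chose cells, was counted at 518 CPM with vehicle and 550 CPM in the library labelled tamoxifen, a log2 ratio of 0.09 (0.01 to 0.16). Ear2, which the rule did not use, stood at 1462 and 1524 CPM, a ratio of 0.06 (0.02 to 0.10). Ear10 gave 643 and 685 CPM and Ear6 gave 66.7 and 70.6 CPM. Atp6v0d2, a subunit of the proton pump that acidifies lysosomes, was at 918 and 874 CPM. Krt79, a keratin, was sparse at 15.7 and 15.9 CPM and was seen in 7.27% and 8.44% of the cells, so it chose few of them. The likeness of Ear1, Atp6v0d2 and Krt79 between the libraries is bound to the rule that used them. Ear2, Ear10 and Ear6, which the rule did not use, had ratios of 0.06, 0.09 and 0.08.

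Markers outside the rule gave the cells the profile of alveolar macrophages. Mrc1, the mannose receptor, stood at 924 and 959 CPM, Itgax (CD11c) at 264 and 258 CPM, Pparg at 256 and 244 CPM, and the clotting factor gene F7 at 364 CPM in both. C1q-high macrophages of the same libraries had at least 5 UMIs of C1qa, C1qb and C1qc together. They also had no UMI of the rule's markers, Cd3e, Cd79a or Epcam (410 and 280 cells). These cells had Pparg at 6.91 and 3.59 CPM, F7 at 30.3 and 20.2 CPM and Ear2 at 10.2 and 14.3 CPM. Mrc1 and Itgax did not separate these cell groups as far, with 623 and 590 CPM and 201 and 199 CPM in the C1q-high cells. Of the 10 marker genes outside the rule, 9 reached 10 CPM, and only Cidec, a lipid droplet gene, did not, with 7.18 and 4.94 CPM. The scavenger receptor Marco was low, at 30.5 and 22.8 CPM.

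Cells just inside and just outside the limit of 3 marker UMIs were compared without a test. There were 1918 and 1304 cells without a marker UMI, 45 and 49 cells with 2, 27 cells in each library with exactly 3, 35 and 44 cells with 5, and 414 and 480 cells with 8 or more. At 2 UMIs, just outside, the cells had Ear2 at 406 and 418 CPM and Chil3 at 2852 and 793 CPM. At 3 UMIs, just inside, Ear2 was at 749 and 562 CPM and Chil3 at 6080 and 2387 CPM, against 9404 and 6458 CPM for Chil3 in the cells with 8 or more. C1qa was at 910 and 1374 CPM just outside, 1282 and 824 CPM just inside, and 123 and 137 CPM in the cells with 8 or more. The cells near the limit thus carried more C1qa than the rest. By cycle genes, 455 and 578 cells had no UMI, 24 and 25 cells had 2 UMIs, and 13 and 9 cells just outside had 3 UMIs.

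**Figure D1:**
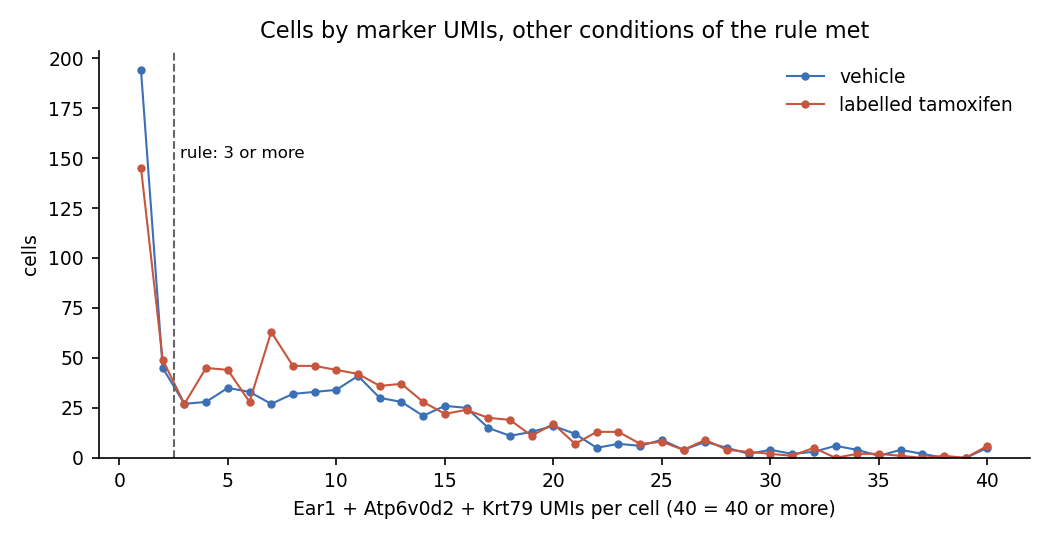
Number of cells (vertical) by the summed UMIs of Ear1, Atp6v0d2 and Krt79 (horizontal, from 1 UMI, with 40 or more drawn at 40) in each library before depletion, among cells that meet the other conditions of the rule; the dashed line marks the limit of 3 UMIs. Both curves dip at the limit, with 27 cells at exactly 3 UMIs in each library, and rise again above it.

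The condition on Epcam removed most cells with alveolar macrophage markers. With Epcam allowed, 1573 cells (21.5% of those kept, Clopper-Pearson 95% interval 20.6 to 22.5) qualified with vehicle and 2057 (33.0%, 31.9 to 34.2) in the library labelled tamoxifen. Epcam at 0 took away 64.1% and 66.6% of them, 1009 and 1370 cells, referred to here as Epcam-carrying alveolar macrophages. After each cell was thinned to 2000 UMIs, Epcam was seen in 30.2% and 32.0% of cells with the markers (median depths before thinning 9129 and 9365 UMIs). It was seen in 5.27% and 4.57% of T cells (6626 and 7016 UMIs) and in 7.97% and 8.30% of B cells (5414 and 5202 UMIs), which should lack the gene. The C1q-high cells defined above have no Epcam by choice, so they were taken here with Epcam allowed (810 and 494 cells). Among these the share was 33.6% and 23.3%, and in epithelial cells 57.7% and 59.6%. Without thinning, 64.1% of the vehicle cells with the markers held Epcam. Both kinds of macrophage were therefore above the lymphocytes beyond counting error.

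Epithelial keratins were seen in fewer of the marker-carrying cells than Epcam was. Krt8 was seen in 5.22% and 6.05% of thinned cells with the markers and Krt18 in 6.37% and 8.0%. The tight junction gene Cldn18 was seen in 3.12% and 4.30% of them. Of the epithelial cells, 70.7% and 71.1% had Krt8, but Krt8, Krt18 and Cldn18 chose those cells, so that share is bound to the choice. Krt8 was seen in 1.76% and 2.69% of T cells and in 4.65% and 3.69% of B cells. Krt19, another keratin, was seen in 14.8% and 8.69% of thinned cells with the markers. Its share was 0.977% and 1.61% in T cells and 1.77% and 2.30% in B cells. In C1q-high cells with Epcam allowed it was 0.622% and 0.816%. Krt18 was at 459 and 488 CPM in Epcam-carrying cells and at 15.7 and 21.8 CPM in the cells described. The surfactant gene Sftpc was seen in 56.1% of marker-carrying vehicle cells but also in 48.6% of T cells and 52.7% of B cells, so its share was alike across types. The Epcam-carrying cells kept the alveolar macrophage profile, with Ear2 at 1492 and 1323 CPM, Pparg at 225 and 217 CPM and Car4, a carbonic anhydrase, at 362 and 486 CPM. They were deeper than the cells without Epcam, with medians of 9761 and 10383 UMIs.

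**Figure D2:**
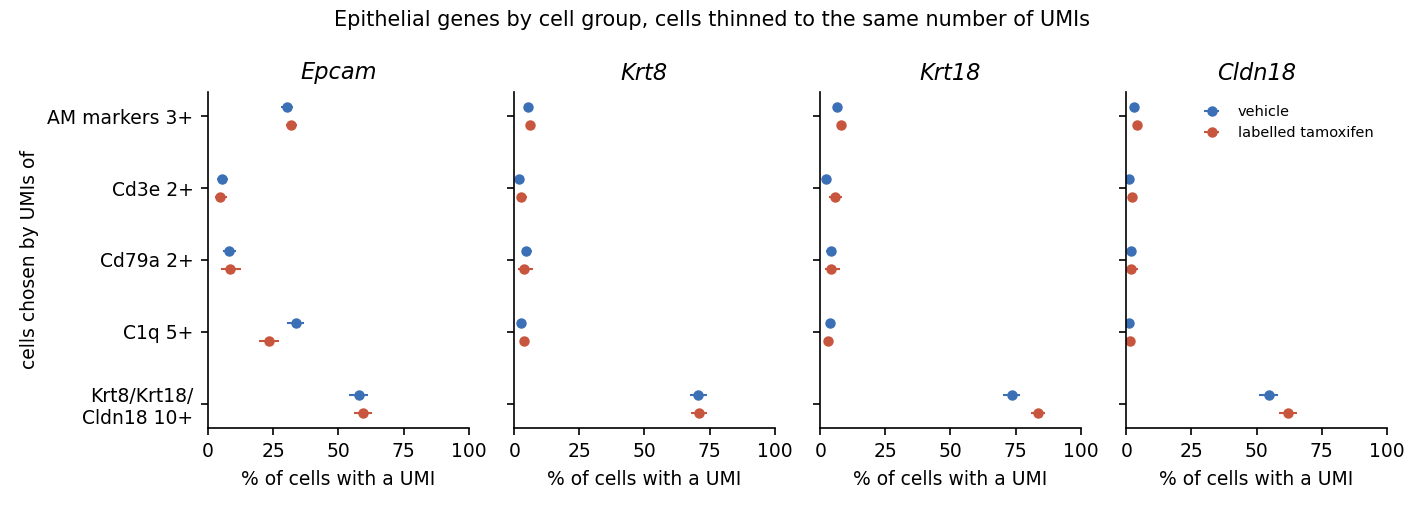
Share of cells (percent, horizontal) with at least 1 UMI of Epcam, Krt8, Krt18 or Cldn18 after thinning to 2000 UMIs per cell, by cell group (vertical; AM is alveolar macrophage) and library; points are shares and lines Clopper-Pearson 95% intervals. Epcam was seen in 30.2% and 32.0% of cells with alveolar macrophage markers, and Krt8 in 5.22% and 6.05%. The C1q group here includes cells with Epcam UMIs. Krt8, Krt18 and Cldn18 chose the epithelial group, so its shares of these genes are bound to that choice.

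The cells made up 7.72% (7.12 to 8.36) of kept cells in the vehicle library and 11.0% (10.3 to 11.8) in the library labelled tamoxifen. The intervals do not overlap, but they cover counting error, and the spread between animals is unknown. Macrophages with the markers and at least 3 cycle UMIs numbered 77 and 59.

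The highest mRNA levels belonged to iron storage, actin-binding and lysosomal genes. Fth1 and Ftl1, the ferritin chains, stood at 23985 and 22612 CPM and at 13101 and 10288 CPM. The lysozyme gene Lyz2 was at 13761 and 12784 CPM, and Tmsb4x, which binds actin monomers, at 18761 and 18519 CPM. The lysosomal genes Ctsd and Psap stood at 4994 and 4075 CPM and at 5141 and 4645 CPM. Ccl6, a chemokine of lung macrophages, was at 5200 and 5568 CPM and was seen in 97.3% and 97.7% of thinned cells. The remaining genes of the highest 12 were Actb, Chil3, Malat1, Tpt1 and Eef1a1, between 2736 and 10620 CPM. Of these genes Chil3, Ftl1 (−0.35) and Ctsd (−0.29) had the log2 ratios farthest from 0. The gene model Gm42418, which overlaps a ribosomal RNA repeat, stood at 29690 and 54210 CPM and was left out of the named genes, and it was also higher in all other kept cells of that library, at 14550 and 20860 CPM.

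Chil3, the chitinase-like protein Ym1 that alveolar macrophages secrete, was among the genes most unevenly spread over cells. It was at 8545 CPM with vehicle and 5803 CPM in the library labelled tamoxifen, a ratio of −0.56 (−0.58 to −0.54). The median thinned cell had 11 Chil3 UMIs in both libraries, and 92.0% and 93.7% of cells had at least 1. The highest cell had 362 UMIs with vehicle and 57 in the other library, and the 10 highest cells held 19.6% and 5.71% of all Chil3 UMIs. The mean per thinned cell was 20 and 12.95 UMIs, so the libraries were alike at the median and apart at the mean. Epcam-carrying alveolar macrophages had Chil3 at 5663 and 4482 CPM, and cycling ones at 6129 and 4686 CPM, in the same direction.

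Genes that differed at least 2-fold between the libraries and reached 10 CPM in either were then counted. Of 8250 genes, 26 (0.315%) were higher and 97 (1.18%) lower in the library labelled tamoxifen, together 1.49%, and the median log2 ratio of all 8250 was −0.05. Many of these rested on single cells. A single cell held over 25% of the UMIs for 68 of the 97 lower genes and 11 of the 26 higher genes, in the library where the gene was higher. Only 13 of the lower and 8 of the higher genes were seen in 10% or more of the cells of either library. The cells holding these shares of the 68 lower genes were 10 vehicle cells, and 3 of them were the top cell for 32, 13 and 12 genes. These 3 cells carried 214, 400 and 74 UMIs of fibroblast or mural markers beside 14, 13 and 11 UMIs of the rule's markers. When the 4 cells of each library with at least 10 such UMIs were left out, which was tried once the data had been seen, the lower genes numbered 44.

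**Figure D3:**
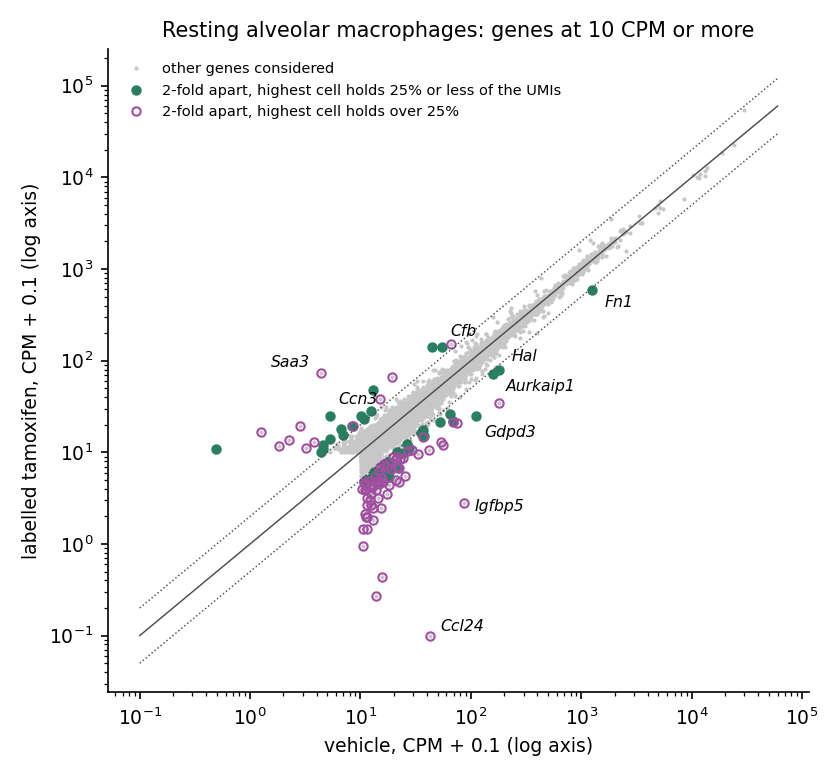
Summed level of each of 8250 genes (CPM plus 0.1, log axes) in alveolar macrophages of the vehicle library (horizontal) and of the library labelled tamoxifen (vertical), with the line of equality and dotted 2-fold lines. Genes past 2-fold are filled where no cell held over 25% of their UMIs and open otherwise; Gdpd3 lies below the lines as a filled point, Ccl24 as an open one, and Ccn3 above them as a filled one.

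Gdpd3 was lower in every cell group compared. This enzyme makes lysophosphatidic acid and lies on chromosome 7 from 126766334 to 126775649 (plus strand, GRCm38). It was counted at 112 CPM (103 to 121) in 300 vehicle cells and at 24.9 CPM in 115 cells of the library labelled tamoxifen, a log2 ratio of −2.12 (−2.44 to −1.90). No vehicle cell held more than 8 of its 575 UMIs, and after thinning it was seen in 21.5% (18.2 to 25.1) and 5.72% (4.10 to 7.74) of cells. The same direction held in Epcam-carrying alveolar macrophages (105 and 28.2 CPM), in C1q-high macrophages (113 and 39.2 CPM) and in all other kept cells (63.3 and 15.3 CPM).

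Ccl24, an eotaxin that recruits eosinophils, was seen, among these cells, in the vehicle library alone. There it had 219 UMIs in 19 cells, or 42.5 CPM, and 81 of these UMIs were in 1 cell that also held 679 Chil3 UMIs. In the library labelled tamoxifen it was not detected, where 3 UMIs over the library's cells would be 0.511 CPM. The vehicle level was 83.1-fold that floor, a value that leaves out the counting error of the vehicle level. The upper end of the interval of the log2 ratio was −6.07. C1q-high macrophages had it at 60.9 and 0.896 CPM, cycling alveolar macrophages at 45.7 and 0 CPM, and Epcam-carrying ones at 2.13 and 1.12 CPM. Retnla, another gene of alternative activation, had 15.7 CPM in 24 vehicle cells and 0.341 CPM in 2 cells of the library labelled tamoxifen, a ratio of −3.64 (−8.60 to −3.63). In Epcam-carrying cells it was at 68.3 and 2.36 CPM. Among the cells described, both genes were thus present in few cells and nearly missing from the library labelled tamoxifen. In all other kept cells Retnla was at 139 and 23.4 CPM, and in C1q-high macrophages at 5.10 and 7.62 CPM.

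Ccn3, a secreted matrix-associated protein also called Nov, was the named higher gene that stayed past 2-fold under every alternative run. It lies on chromosome 15 from 54745702 to 54754039 (plus strand, GRCm38). Its level was 5.24 CPM in 17 vehicle cells and 24.5 CPM in 59 cells of the library labelled tamoxifen, a ratio of 2.03 (1.63 to 2.88). After thinning it was seen in 0.533% (0.110 to 1.55) and 3.96% (2.63 to 5.71) of cells. Epcam-carrying alveolar macrophages had it at 7.96 and 27.1 CPM. C1q-high macrophages had almost none, at 0 and 0.224 CPM. Gdpd3, Ccl24 and Ccn3 were the 3 of 28 named genes that stayed past 2-fold under all 16 alternatives run on single genes.

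Further genes past 2-fold and seen in at least 10% of cells, named after their values were seen unless the rule for named genes held them, included Aurkaip1, Fn1, Hal and Tnip3 among the lower. Aurkaip1, which encodes a mitochondrial ribosomal protein, was at 160 CPM in 379 cells and 70.7 CPM in 292 cells. Its ratio was −1.16 (−1.35 to −1.0), and it was lower in Epcam-carrying cells as well (159 and 68.4 CPM). It was also lower in cycling alveolar macrophages (188 and 81.5 CPM) and in C1q-high macrophages (103 and 51.8 CPM). All other kept cells had Aurkaip1 at 117 and 64.4 CPM. Fn1, fibronectin, was at 1247 and 590 CPM, a ratio of −1.08 (−1.14 to −1.02), in 285 and 240 cells. In Epcam-carrying cells Fn1 was at 474 and 521 CPM, so the difference was not shared by them. It was shared by cycling alveolar macrophages (848 and 298 CPM) and by C1q-high macrophages (1470 and 616 CPM). Hal, histidine ammonia lyase, was at 179 and 79.8 CPM, and Tnip3, an inhibitor of NF-kB signalling, at 65.2 and 25.9 CPM. In Epcam-carrying cells Hal was at 63.8 and 45.3 CPM and Tnip3 at 49.3 and 37.3 CPM, so of these 4 genes Aurkaip1 alone was past 2-fold in both groups. Cycling alveolar macrophages had Hal at 148 and 71.7 CPM and Tnip3 at 74.2 and 2.81 CPM. C1q-high macrophages had Hal at 52.4 and 35.4 CPM and Tnip3 at 117 and 56.0 CPM.

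Among the higher genes in at least 10% of cells, Zkscan17, a zinc finger gene, was at 12.2 CPM in 50 cells and 28.5 CPM in 120 cells, a ratio of 1.16 (0.79 to 1.66), and at 13.1 and 31.2 CPM in Epcam-carrying cells. Cpne5, a calcium-dependent membrane-binding protein, was at 6.6 and 17.7 CPM in 29 and 82 cells. Cfb, factor B of the alternative complement pathway, was at 54.5 CPM in 150 cells and 142 CPM in 223 cells, and 21.3% of its UMIs in the higher library were in 1 cell. The ratio of Cfb, 1.36, ranged from 0.19 to 1.5 over 16 alternatives and was past 2-fold in 10 of them, with the lowest value without cells that carried markers of another non-epithelial type. BC018473, a gene without an established role, was at 13 and 47.7 CPM in 43 and 153 cells and was higher in all other kept cells too (40.7 and 93.5 CPM). Clu, clusterin, was at 19.2 and 66.5 CPM, but 28.2% of its UMIs in the higher library came from 1 cell. Gkn2, an epithelial secreted protein, was at 10.7 and 23.0 CPM here and at 557 and 862 CPM in all other kept cells. Epcam-carrying alveolar macrophages had Gkn2 at 523 and 791 CPM and Clu at 677 and 1089 CPM. The share of cells with at least 10 epithelial marker UMIs was 4.43% and 10.9%, while the summed level of these markers was 858 and 721 CPM, and their part in these genes was not tested.

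Other large ratios came from very few cells. Saa3, serum amyloid A3, was at 4.27 and 72.4 CPM with 15 and 10 cells, and 1 cell held 66.6% of the UMIs in the library labelled tamoxifen. Nos2 (nitric oxide synthase), Il12a (a subunit of interleukin 12) and the glutamate transporter Slc1a2 had ratios of 3.00, 2.22 and 2.45, and the same cell was highest for each. That cell had 40886 UMIs, 22 UMIs of the rule's markers and 67 UMIs of T cell markers. H2-M2, a non-classical histocompatibility gene, was at 44.0 and 140 CPM. Il23a, Tnfrsf11b and Csmd1 had ratios of 1.54, 1.57 and 1.30, with Il23a highest in a cell that carried 189 neutrophil marker UMIs and the others in a cell with 88 fibroblast UMIs. Isg15, an interferon-induced protein, was at 8.34 CPM in 36 cells and 19.4 CPM in 57 cells, a ratio of 1.13 (0.70 to 1.76). It was also higher in C1q-high macrophages (24.8 and 71.7 CPM) and in all other kept cells (15.6 and 32.8 CPM). Epcam-carrying alveolar macrophages had Isg15 at 8.04 and 10.2 CPM, and cycling ones at 8.0 and 9.84 CPM. Pilrb1, a paired receptor, was at 4.46 and 10.7 CPM in 19 and 53 cells. H2-M2 was seen in 49 and 64 cells, but without cells that carried at least 10 UMIs of another non-epithelial type's markers its ratio was −0.26.

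The matrix and growth factor genes at the lower end had their highest vehicle cell among the 3 cells with fibroblast markers given above. Igfbp5, an IGF-binding protein, was at 86.1 and 2.73 CPM with 95.5% of the vehicle UMIs in 1 cell, and every vehicle UMI of Inmt, a methyltransferase, was in 1 cell. Ccn2 had 55.3 and 11.9 CPM. The other named genes, C1qtnf7, Dkk2, Col8a1, Fbn1, Nhs, Tnc, Cdh11, Robo2 and Col15a1, had ratios between −2.09 and −1.72. Summed fibroblast and mural markers were at 168 and 63.2 CPM, and 3 of 6 of them (Col1a1, Col1a2 and Col3a1) were past 2-fold lower. Without the cells with at least 10 such UMIs, 8 of the 12 genes named here had ratios above 0.

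**Figure D4:**
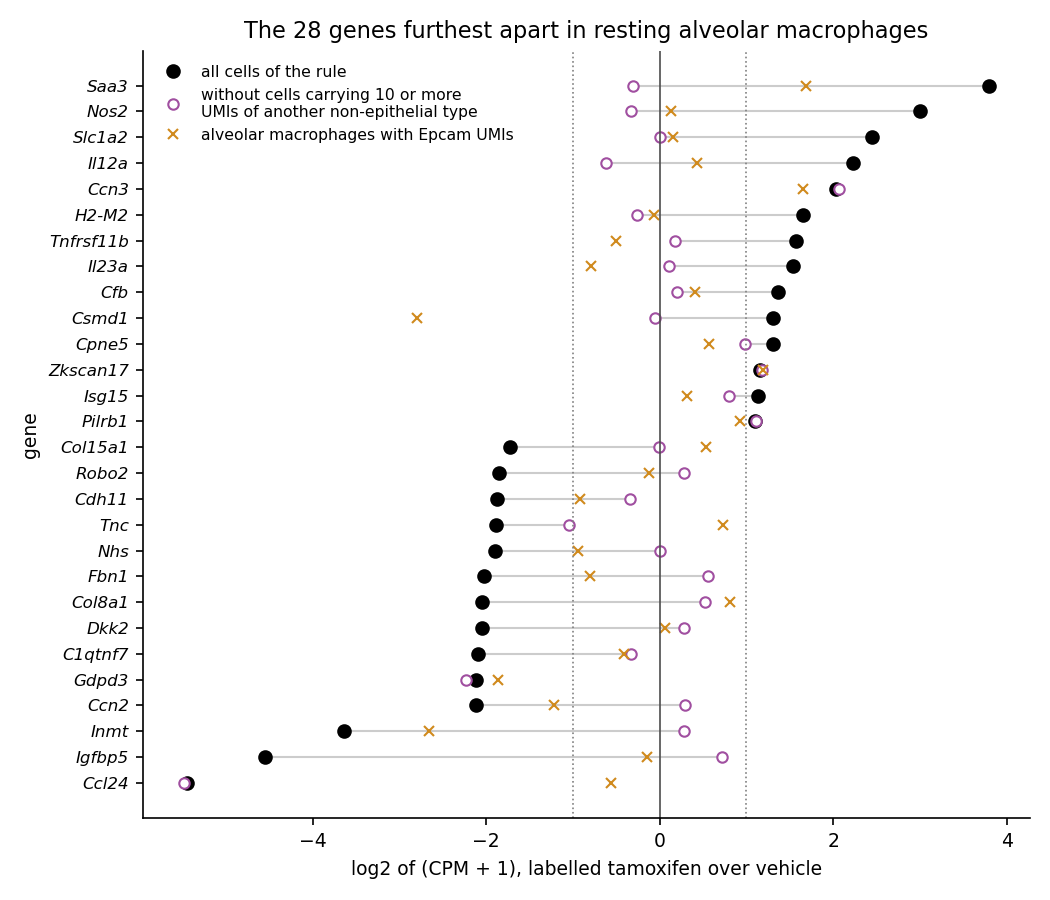
Log2 ratio of the library labelled tamoxifen over vehicle (CPM plus 1) for the 28 named genes in all cells of the rule (black), without cells that carried at least 10 UMIs of another non-epithelial type's markers (open), and in Epcam-carrying alveolar macrophages (crosses); dotted lines mark 2-fold. Gdpd3 (−2.12, crosses at −1.86) and Ccn3 (2.03, crosses at 1.65) lie on 1 side in each, and most matrix genes move to near 0 or above it without the marked cells.

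Pathway lists were then read by their counts and medians beside the background of 0.315% higher and 1.18% lower genes. Alveolar macrophage identity genes did not differ as a group: of 20 genes 19 reached 10 CPM, none passed 2-fold either way, and their median was 0.00. Within the list Fabp1, a fatty acid binding protein, stood at 158 and 302 CPM, a ratio of 0.93 (0.81 to 1.05), and its thinned share was 21.5% and 32.4%. Car4 was at 378 and 569 CPM with shares of 45.7% and 58.5%, and the surface receptor Siglecf was at 51.8 and 75.7 CPM. The surface protein Plet1 was seen in 76.0% and 84.8% of thinned cells. Fabp4, a target of PPARγ, was at 163 and 109 CPM. The list thus held genes on both sides of 0.

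Niche receptors gave 0 higher and 1 lower of 22, with a median of 0.05. The lower gene was Smad3, which carries TGF-β signals, at 13 and 4.94 CPM. Tgfbr1, a TGF-β receptor, was at 229 and 329 CPM, and Csf2rb, a chain of the GM-CSF receptor, at 295 and 337 CPM. Of 22 transcription factors none passed 2-fold and the median was −0.03, with the myeloid factors Spi1 at 356 and 368 CPM and Cebpb at 2262 and 2089 CPM. The receptors and factors that maintain these cells were therefore within 2-fold, apart from Smad3.

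Lipid handling and lysosomal genes showed small ratios. None of 28 lipid genes passed 2-fold and their median was −0.02. The lipid carrier Apoe was at 2519 and 1585 CPM, the fatty acid receptor Cd36 at 162 and 121 CPM and Dgat1, which makes triglyceride, at 163 and 110 CPM. Apoe was seen in 28.8% and 30.1% of thinned cells, and the 10 highest cells held 74.1% and 58.45% of its thinned UMIs. None of 36 lysosome genes passed 2-fold, and 33 had ratios below 0, with a median of −0.15. Over all 8250 genes 4974 had ratios below 0, and the median was −0.05. The range of that median over 18 alternatives was −0.17 to −0.08. Ctsd was at 4994 and 4075 CPM, Cd63, a lysosomal membrane protein, at 457 and 308 CPM, Ctsl at 309 and 238 CPM, and Ctsc, a protease that activates other proteases, went the other way at 871 and 1023 CPM. In Epcam-carrying cells the lysosome median was −0.08. Sterol and fatty acid synthesis had 1 of 25 lower, the desaturase Scd1 at 22.5 and 8.35 CPM, and a median of 0.13. Of the vehicle UMIs of Scd1, 52.6% were in 1 cell that carried 1084 epithelial marker UMIs.

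Phagocytic and pattern receptors gave no gene past 2-fold among 28, with a median of 0.05. The Fc receptor Fcgr3 was at 231 and 302 CPM, the lipid receptor Trem2 at 150 and 101 CPM and the integrin Itgam at 50.3 and 32.7 CPM. Alternative activation had 2 of 11 lower, Ccl24 and Retnla, with a median of −0.16 that ranged from −0.53 to −0.09 over 18 alternatives. Arg1, arginase, was at 166 and 85.7 CPM and in 9.77% and 4.11% of thinned cells. The genes of the 2-fold group again rested on few cells, while Mrc1 was level.

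Type I interferon response genes were above 0 as a group by a small amount. Of 48 genes 46 were in the feature list, 27 reached 10 CPM, 1 (Isg15) passed 2-fold higher, and 24 of the 27 had ratios above 0 (3276 of 8250 over all genes) with a median of 0.21. The median ranged from 0.08 to 0.29 over 18 alternatives and was 0.07 in Epcam-carrying cells. Ifi27l2a stood at 103 and 170 CPM and Bst2, which holds virus particles at the cell surface, at 74.5 and 97.2 CPM. Genes of the interferon gamma response and MHC class I had a median of 0.11 with none of 21 past 2-fold, and MHC class II genes a median of 0.04 with none of 10 past 2-fold. The antigen-presenting chain Cd74 was at 2420 and 2600 CPM.

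Cytokines and chemokines included 3 higher and 1 lower of 29. The higher ones were Nos2, Il12a and Ccl5, which recruits T cells, at 66.0 and 151 CPM, and the lower one was Ccl24. For Ccl5, 1 cell held 40.7% of the UMIs in the library labelled tamoxifen, and that cell carried 113 C1q-high macrophage marker UMIs. Nos2 and Il12a were highest in the cell with T cell markers given above. The abundant ones were level, with the neutrophil attractant Cxcl2 at 1185 and 1136 CPM, the inflammatory cytokine Il1b at 784 and 834 CPM and Tnf at 119 and 102 CPM. Feedback genes of NF-kB gave none of 19 past 2-fold, with a median of −0.07. Immediate early and heat shock genes gave none of 24, with a median of −0.07. Most genes of these lists were therefore within 2-fold.

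Genes of tumour-associated macrophages and growth factors gave 3 lower and 0 higher of 33, and 24 of the 33 had ratios below 0 (4974 of 8250 over all genes), with a median of −0.28 that ranged from −0.32 to −0.06 over 18 alternatives. The lower ones were Fn1, F13a1 (factor XIII, a monocyte marker, 13.4 and 5.28 CPM) and the protease Adam8 (36.9 and 17.6 CPM). Spp1, osteopontin, was at 2155 and 1771 CPM and in 72.7% and 64.1% of thinned cells. Mmp12, the macrophage elastase, was at 580 and 663 CPM, and its thinned share was 19.0% (15.9 to 22.5) and 37.5% (33.9 to 41.3), so more cells held a UMI while the summed level differed little. In Epcam-carrying cells Mmp12 was at 514 and 943 CPM and the median of the list was 0.00. The share of cells with at least 10 monocyte marker UMIs was 8.16% and 7.42%, and with at least 10 C1q-high macrophage marker UMIs 7.27% and 4.37%. The part of such cells in the list was not tested.

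Metabolic, cycle and checkpoint lists held no gene past 2-fold. Antioxidant and iron genes had a median of −0.09 over 27 genes, glycolysis −0.14 over 18 and oxidative phosphorylation −0.04 over 45. Cell cycle genes outside the rule gave −0.11 over 15, with Ccnd2, a cyclin of early cycle, at 239 and 311 CPM. Immune checkpoint ligands had a median of −0.02 over 13, with Cd274 (PD-L1) at 169 and 187 CPM and the inhibitory receptor Pilra at 93.5 and 143 CPM. Steroid hormone receptors and their coactivators, which bear on a drug that binds the oestrogen receptor, had a median of 0.10 over 6, with Esr1 at 29.9 and 33.6 CPM.

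**Figure D5:**
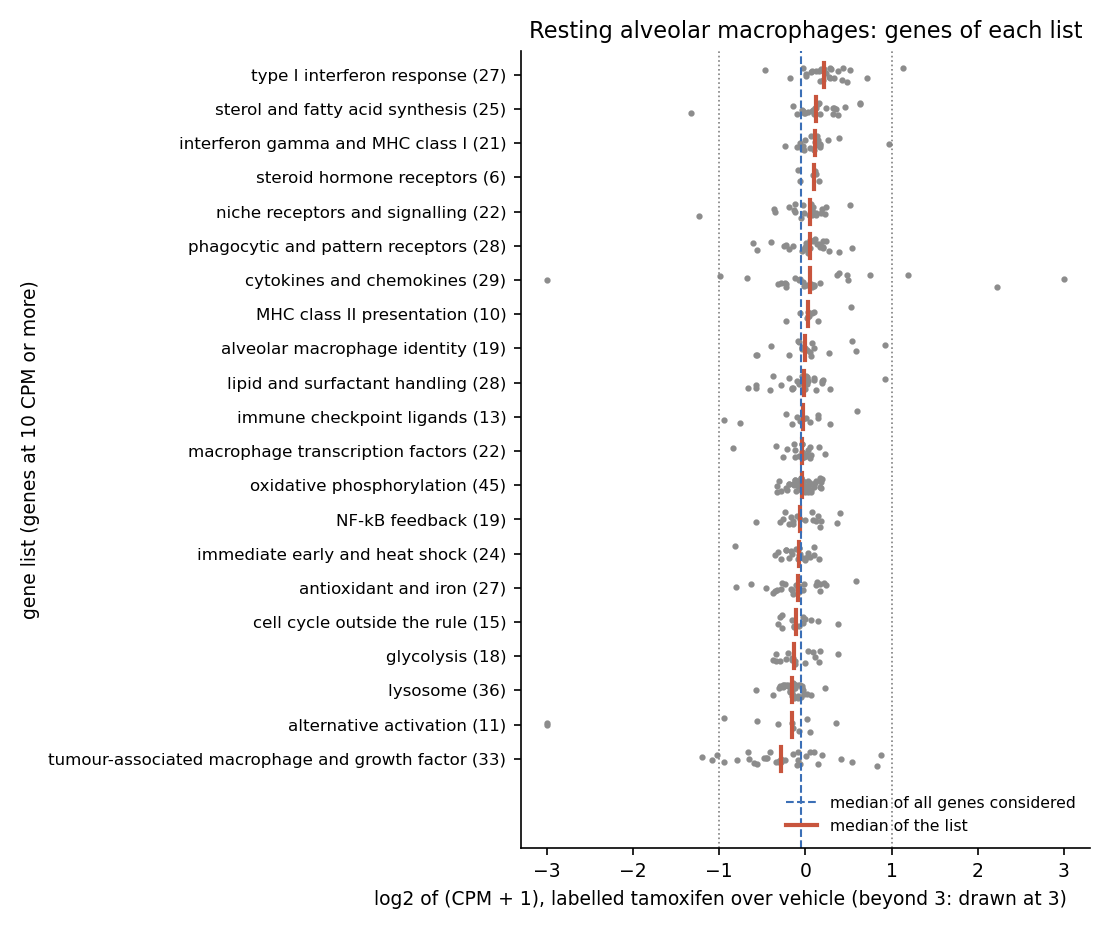
Log2 ratio of the library labelled tamoxifen over vehicle for every gene at 10 CPM or more in each pathway list (points, those beyond 3 drawn at 3), with the median of each list (bars) and of all 8250 genes (dashed line). The type I interferon list has its median at 0.21, the lysosome list at −0.15 and the tumour-associated macrophage list at −0.28.

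Cells differed among themselves mainly in a few genes. The variance over the mean (Fano factor) of thinned UMIs had a median near 1.06 over 4990 genes in both libraries, and it was 62.2 and 7.92 for Chil3. It was 79.2 and 231 for Mgp, matrix Gla protein, which was seen in 5.33% and 6.6% of cells and had 92.7% and 89.6% of its UMIs in the 10 highest cells, with 94.3% of the unthinned UMIs of the library labelled tamoxifen in 1 cell. Apoe reached 118 and 50.3, and it went with C1qa across cells (Pearson r 0.74 and 0.71 over 563 and 682 cells of each library, given as a description). Fth1 went with Ftl1 (r 0.72 and 0.65). Cxcl2 had 39.8 and 6.80 and went with Il1b (r 0.39 and 0.33), while Fn1 had 9.53 and 7.76 and went with Arg1 (r 0.50 and 0.34). Summed C1q-high genes were lower where the alveolar macrophage genes outside the rule were higher (r −0.27 and −0.30), and went with tumour-associated macrophage genes (r 0.38 and 0.28). These pairs are correlations over cells of one library, which are not independent replicates.

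The cells were also set beside the other macrophages, for description only, since the groups were made from the same counts. Over C1q-high macrophages 617 of 8344 genes (7.39%) were at least 2-fold higher in both libraries and 724 (8.68%) lower. Among the higher ones outside the rule, Car4 was at 378 and 569 CPM against 2.40 and 3.81 CPM, Ctsk, a lysosomal protease, at 404 and 354 CPM against 2.40 and 4.93 CPM, and Wfdc21, an antimicrobial protein, at 427 and 476 CPM against 2.10 and 4.93 CPM. Among the lower ones the monocyte chemokine Ccl12 was at 8.73 and 6.48 CPM against 410 and 441 CPM, and Cx3cr1, the fractalkine receptor, at 20.6 and 24.2 CPM against 355 and 411 CPM. Over all other kept cells 428 genes (4.49% of 9535) were higher and 1641 (17.2%) lower. Over cycling alveolar macrophages 91 genes (1.1% of 8282) were higher and 360 (4.35%) lower, the latter led by genes of division such as Cenpf and Ccna2. Over Epcam-carrying alveolar macrophages 24 genes (0.282% of 8499) were higher and 418 (4.92%) lower. Those lower were led by epithelial genes such as Gkn2 and Krt18, and those higher included Mgp (709 and 851 CPM against 63.2 and 59.2 CPM) and Spp1 (against 1048 and 753 CPM). The 10 highest cells held 92.7% and 89.6% of the thinned Mgp UMIs. Fibroblast markers were also among the higher genes, such as Col1a2 (69.1 and 21.5 CPM against 5.83 and 2.14 CPM).

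The comparison of treatments in Epcam-carrying alveolar macrophages found 28 genes higher (0.32% of 8762) and 42 lower (0.479%). Of the 26 higher genes of the cells described, 4 (15.4%) were among the 28 (14.3% of those), and of the 97 lower genes 9 (9.28%) were among the 42 (21.4%). The higher ones in both were Zkscan17, BC018473, Ccn3 and Saa3. The lower ones included Gdpd3, Retnla, Aurkaip1, Ccn2 and Dnase1l3, a DNase of macrophages (18.0 and 5.28 CPM). Both groups come from the same 2 libraries, so the overlap is not support from separate animals.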

How the data were processed

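RNA was measured as UMI counts in single cells. In the deposited matrices the unit is the raw UMI count of a gene in a barcode, written by Cell Ranger 7.0.1 per the file headers, while the submitters' processing notes name Cell Ranger 7.2.0 and mm10 (UCSC's name for GRCm38). The annotation and the use of intronic reads and strand are not given in the sources used here. Of 32289 features, 32158 matched GENCODE M21, which gave coordinates.

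UMIs were summed over cells of a library and scaled to CPM with python 3.11.15, numpy 2.4.6, scipy 1.17.1 and pandas 2.3.3. With 1 library per group a rule of size was used, not a test: at least 2-fold (pseudocount 1 CPM) and at least 10 CPM in either library. Counts of cells and shares were taken with Clopper-Pearson 95% intervals, and a count of 0 allows 3 UMIs. PCR copies were collapsed by UMI, and intervals cover counting error only. For shares and the Fano factor, 563 and 682 cells were thinned to 2000 UMIs, and 1 and 5 shallower cells left out. Scrublet (scanpy 1.11.5) called 188 vehicle cells but 1 cell (0.0161%) of the library labelled tamoxifen, so it had not worked, no cell was removed, and a score over 0.25 (9 and 11 of the cells described) was an alternative.

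Named genes are the 14 highest and the 14 lowest ratios past the rule, leaving out mitochondrial, ribosomal, immunoglobulin, sex-linked and unnamed gene models and genes over 2 times higher in other kept cells, then the 12 highest levels, the 12 highest Fano factors (mean of at least 0.05 UMI), and list members with the largest differences. The alternatives were other pseudocounts, CPM and fold limits, scalings (TMM from edgeR 4.0.16, median of ratios), thinning, cell filters and leaving out cells. The rule was tested on library totals simulated as Poisson counts. These did not model UMIs gathered in single cells, so the test does not cover genes that rest on such cells. The cells, markers and lists were chosen with earlier results of these data known. Some items of the labels and lists are not reported here.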

Additional observations from a re-analysis of the deposited data

Results flagged for a closer look

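In C1q-high macrophages the log2 ratio of the library labelled tamoxifen over vehicle was −3.31 for Saa3 (344 and 33.8 CPM) and −4.52 for Csmd1 (27.0 and 0.224 CPM). In the alveolar macrophages the ratios of these genes had the opposite sign, 3.80 and 1.30, with 1 cell holding 66.6% and 73.3% of the UMIs of the library labelled tamoxifen. The difference between the cell groups was not tested, since each group has 1 library.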

How the results depend on the processing

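Of 28 named genes, 10 kept their sign under all 16 alternatives and 3 stayed past 2-fold; Slc1a2 came to a ratio of 0 without cells marked by any other non-epithelial type. The counts of higher and lower genes (26 and 97) were 131 and 395 with no CPM minimum, 5 and 13 with a minimum of 50 CPM, 7 and 18 at 4-fold, and 99 and 168 after thinning (12 and 26 of these shared with the counts given in the results). Lower genes alone moved to 51 with the mean over cells, 149 with at most 10% mitochondrial UMIs and 34 with Epcam allowed. Of the alternatives chosen after seeing the data, allowing Epcam gave 34 lower genes and leaving out cells with fibroblast markers 44. Also of these, leaving out cells with at least 10 UMIs of any other non-epithelial type gave 16 higher and 42 lower. Leaving out each gene's highest cell, likewise chosen then, gave 61 lower. TMM gave 28 and 91, and the median of ratios 29 and 88.

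The shares of 7.72% and 11.0% became 6.49% and 9.17% with at least 6 marker UMIs, 6.23% and 9.28% with no cycle UMI, 5.83% and 8.06% with further lineage genes at 0, 21.5% and 33.0% with Epcam allowed, and 9.62% and 13% with the marker rule applied to thinned cells. The vehicle share was 6.49% with at most 10% mitochondrial UMIs. The share of the library labelled tamoxifen was above that of vehicle in each of these.

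Reversed log2 ratios were −0.57 for Tnfrsf11b and 1.30 for Nhs after thinning, −1.46 for Il23a with at least 6 marker UMIs, −1.62 for Tnfrsf11b and 1.40 for Tnc with no cycle UMI, −0.28 for Nos2 with further lineage genes at 0, −0.018 for Il23a and −0.17 for Csmd1 with Epcam allowed, and −0.76 for Tnfrsf11b without its highest cell. Without fibroblast-marked cells they were −0.57 for Tnfrsf11b, −0.032 for Csmd1, 0.78 for Igfbp5, 0.23 for Inmt, 0.16 for Ccn2, 0.88 for Dkk2, 0.60 for Col8a1, 0.64 for Fbn1, 0.23 for Robo2 and 0.10 for Col15a1. Without cells marked by any other non-epithelial type they were −0.31 for Saa3, −0.33 for Nos2, −0.61 for Il12a, −0.26 for H2-M2, −0.056 for Csmd1, 0.72 for Igfbp5, 0.28 for Inmt, 0.29 for Ccn2, 0.28 for Dkk2, 0.52 for Col8a1, 0.56 for Fbn1 and 0.28 for Robo2. The cause was not tested beyond the cells left out. No paired analysis was possible because each group holds 1 library. At this depth a gene with no UMI in the cells of a library could still stand at 0.582 CPM (vehicle) or 0.511 CPM.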
